A study of Mus musculus with 4 samples.

Results

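The cells described here were thymocytes with mRNA of both Cd69 and Itm2a. They were chosen by a gate on unique molecular identifiers (UMIs, the count of captured mRNA molecules): at least 1 UMI of Cd69 and of Itm2a, 0 UMIs of S1pr1, and fewer than 3 UMIs per 10000 for the summed cycling genes Mki67, Top2a, Pclaf, Rrm2, Tyms and Birc5. The gate held 838 of 17544 kept cells in the 4 libraries, 395 of them from the wild type thymus (WT), 207 from the preleukemic thymus (PL), 92 from T-ALL#1 and 144 from T-ALL#2. Droplet 3′ single-cell RNA sequencing had been run on viable singlets sorted from freshly dissociated FVB/N thymi after lysis of red cells. WT is labelled Wild type and 6 weeks old, PL is labelled Tal1/Lmo2 and 6 weeks old, and both leukemic thymi are labelled Tal1/Lmo2 and 3 months old. Per the study's methods, both transgenes were driven by the proximal Lck promoter, which is active in immature thymocytes. WT and PL had 1 library each, so their difference has no replicate check, and in the leukemias age and disease cannot be told apart.

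Positive selection is the step at which a double-positive (DP) thymocyte, which carries both CD4 and CD8, receives a survival signal through its αβ T-cell receptor. The signal induces immediate early genes such as Egr1 and Nr4a1 and then CD69, ends recombination at the receptor loci, and starts the choice between the CD4 and the CD8 lineage. Cd69 (chromosome 6, 129267325 to 129275436, minus strand of GRCm38) encodes a lectin-like receptor that holds S1PR1 inside the cell and so delays exit from the thymus. Itm2a (chromosome X, 107397099 to 107403376, minus strand) encodes a membrane protein induced during selection. S1pr1 encodes the sphingosine phosphate receptor used for thymic exit.

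The kept cells held 24042062 UMIs in WT, 40851235 in PL, 70745712 in T-ALL#1 and 36236569 in T-ALL#2, with median UMIs per cell of 3800.5, 4888, 8742 and 17581. Tal1 had 0 UMIs in the WT library and 410 CPM (a gene’s UMIs per 1000000 UMIs of the summed cells) in PL, 68.3 CPM in T-ALL#1 and 234 CPM in T-ALL#2, so Tal1 does not go against the genotype labels. Lmo2 was at 0.915 CPM in WT, 4.48 in PL, 0.368 in T-ALL#1 and 0.276 in T-ALL#2, so the counts of the mouse gene do not bear out that transgene in the leukemias, and whether they can include its transcript was not tested. WT and PL are labelled male, but Xist was at 1380 and 1869 CPM and Ddx3y at 0 UMIs in both, so these libraries go against that label. T-ALL#1 had Xist at 1932 CPM and Ddx3y at 0 UMIs, whereas T-ALL#2 had Xist at 0.0828 CPM and Ddx3y at 40.6 CPM. T-ALL#2 thus differed from the other libraries in these sex-linked genes, and the part of sex in the results was not tested. Libraries shared between 0 and 9 barcodes of kept cells. Every interval given is an exact 95% interval for counting error only, since cells of 1 library are not replicates.

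The gate took 9.36% of kept WT cells (8.50 to 10.3%), 3.71% in PL (3.23 to 4.24%), 1.59% in T-ALL#1 (1.29 to 1.95%) and 7.29% in T-ALL#2 (6.18 to 8.53%). These shares follow depth as well as cell state, because a deeper cell more often shows 1 UMI of each gene. With every cell thinned to 2000 UMIs and shallower cells left out, the gate took 199 of 3229 WT cells (6.16%), 36 of 5226 in PL (0.689%), 11 of 5679 in T-ALL#1 (0.194%) and 7 of 1975 in T-ALL#2 (0.354%). WT had the highest share after thinning, with its interval apart from the others, whereas before thinning the intervals of WT and T-ALL#2 overlapped.

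**Figure D1:**
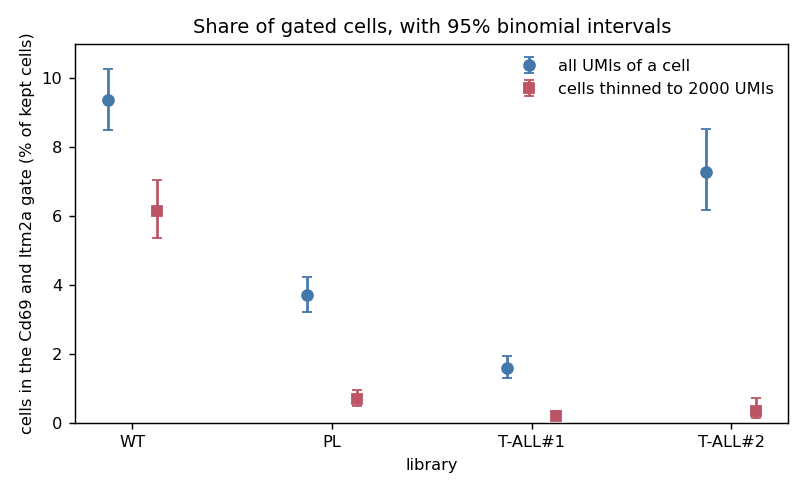
Share of kept cells inside the Cd69 and Itm2a gate in percent (y axis) in each library (x axis), from all UMIs and after thinning to 2000 UMIs per cell. Error bars are exact binomial 95% intervals. After thinning, WT stands at 6.16% and the other 3 libraries are under 1%.

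The gate cut at different depths of expression. Of the gated cells, 38 in WT, 76 in PL, 28 in T-ALL#1 and 27 in T-ALL#2 lay just inside it, with exactly 1 UMI of each gene. Cells just outside, with 1 gene alone and all other conditions met, numbered 331 (Cd69 alone) and 474 (Itm2a alone) in WT, 707 and 574 in PL, 145 and 594 in T-ALL#1, and 57 and 451 in T-ALL#2. At least 5 UMIs of Itm2a were found in 207 of 395 gated WT cells, 18 of 207 gated PL cells, 22 of 92 in T-ALL#1 and 29 of 144 in T-ALL#2. The gated WT cells were therefore mostly well inside the limit for Itm2a, and the gated PL cells mostly at it.

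Whether the 2 genes marked the same cells was read after thinning. In WT, Itm2a was found in 47.6% of the low-cycling S1pr1-negative cells with Cd69 (42.7 to 52.5%) and in 24.2% of those without (22.2 to 26.2%). In PL the same shares were 8.49% (6.02 to 11.6%) and 7.77% (6.90 to 8.72%), in T-ALL#1 10.9% and 8.93%, and in T-ALL#2 18.9% and 20.3%. In WT, Itm2a was more frequent in cells with Cd69, and in each transgenic library the intervals of the 2 shares overlapped. Among 47 cells with B-cell or myeloid markers, 20 held Cd69, none held Itm2a and none were in the gate. In the droplets of T-ALL#2 with fewer than 100 UMIs, Itm2a was at 70.6 CPM (58.9 to 83.9) and Cd69 at 12.7 CPM (8.04 to 19.0). The kept cells outside the gate were at 115 and 14.2 CPM, inside the interval for Cd69 and above it for Itm2a. The part of free RNA in the T-ALL#2 gate was not tested.

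The label was checked on the markers that the gate did not use. Cd5, a negative regulator of receptor signaling, Tox, a nuclear factor needed for the CD4 lineage, Id3, an inhibitor of E proteins, and Egr1 were each at least 2-fold higher in gated WT cells than in WT DP cells lacking Cd69 and Itm2a, and than in all low-cycling WT cells lacking both genes, where 4.49% of 3787 genes were at least 2-fold higher and 9.98% lower. Against the cells of their own library lacking both genes, 3 of the 4 were at least 2-fold higher in PL (not Tox), 2 of 4 in T-ALL#1 (Tox and Id3) and 0 of 4 in T-ALL#2, against 0.638%, 1.47% and 0.23% of all genes compared. The name post-selection thymocytes is therefore used only for WT, and the other cells are called gated cells. Gated cells were deeper than the cells lacking both genes. Median UMIs were 5564 against 2344.5 in WT, 7553 against 4135 in PL, 11856.5 against 4539 in T-ALL#1 and 16204.5 against 7305.5 in T-ALL#2. The comparisons within PL and the leukemias were not repeated at equal depth.

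Cd5 was at 530 CPM (501 to 560) in gated WT cells, 106 (91.7 to 123) in PL, 100 (83.0 to 120) in T-ALL#1 and 17.9 (13.0 to 24.1) in T-ALL#2, and at 99.3 CPM (88.0 to 112) in WT DP cells. Id3 was at 599 CPM in WT, 85.5 in PL, 95.2 in T-ALL#1 and 211 in T-ALL#2, and at 167 CPM in WT DP cells. Gated WT cells were the highest of the 4 for both genes. Tox was at 408 CPM in WT, 317 in PL, 138 in T-ALL#1 and 55.8 in T-ALL#2, so that PL was 1.29-fold below WT (1.16 to 1.43) while Cd5 was 4.99-fold below (4.28 to 5.84) and Id3 7.01-fold (5.92 to 8.34).

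WT gated cells were compared with 1154 WT DP cells, which had at least 1 UMI of Cd4 and of Cd8a or Cd8b1, no Cd69, Itm2a or S1pr1, and low cycling genes, to ask what else differs between cells on either side of selection. Gated cells had a median of 5564 UMIs and DP cells of 2307. Of 3946 genes with at least 50 CPM in the higher population, 9.22% were at least 2-fold higher in gated cells and 15.2% at least 2-fold lower, with a median log2 ratio of -0.22. Scaling by TMM or DESeq2 factors in place of total UMIs would raise every log2 ratio here by 0.15 or 0.19.

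Early genes that receptor signaling induces were mostly higher. Of 16 on the list, 11 were at least 2-fold higher in gated WT cells (Egr1, Egr2, Nr4a1, Nr4a3, Nab2, Junb, Ier2, Dusp2, Dusp6, Nfkbid and Myc), 1 was lower (Jun), Dusp5 lay between at 1.80-fold (1.42 to 2.29), and 3 were under 50 CPM, with a median log2 ratio of 3.05 over the list. Egr1, a zinc-finger factor, was at 363 CPM (339 to 388) against 23.6 CPM, 15.4-fold higher (12 to 20.1). Nr4a1, an orphan nuclear receptor read as a measure of receptor signal strength, was at 258 CPM against 5.98, 43.1-fold higher (26.7 to 74.5). Egr1 mRNA was found in 187 of the 395 gated cells and Nr4a1 in 101, and 70 cells held both. Nab2, a corepressor of EGR factors, was 21.3-fold higher (14.9 to 31.4), and Egr2, with 4 UMIs in DP cells, 70.6-fold (27.2 to 261). Jun went the other way, at 169 CPM against 548, 3.25-fold lower (2.91 to 3.63), while Fos was at 15.5 and 17.3 CPM. The AP-1 genes thus did not move as 1 group.

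Because these early genes were high together, the promoters of 3 of them are shown, each with a motif known from signal-induced genes. They are the 250 bases before the RefSeq start (GRCm38.p6), 5′ to 3′ on the strand of the gene, with motif matches in capitals. Egr2 (chr10:67537316-67537565, plus strand, 1 of 5 starts in the table) holds a CArG box, the site read by serum response factor, that begins 72 bases before the start. Nr4a1 (chr15:101266596-101266845, plus strand) holds 4 copies of TGACG, the core of a CRE site, in its reverse complement, and 1 GCGNGGGCG left in lower case. Dusp2 (chr2:127335909-127336158, plus strand), a nuclear MAP kinase phosphatase, holds 1 GCGNGGGCG, the EGR motif, 98 bases before the start.
Egr2: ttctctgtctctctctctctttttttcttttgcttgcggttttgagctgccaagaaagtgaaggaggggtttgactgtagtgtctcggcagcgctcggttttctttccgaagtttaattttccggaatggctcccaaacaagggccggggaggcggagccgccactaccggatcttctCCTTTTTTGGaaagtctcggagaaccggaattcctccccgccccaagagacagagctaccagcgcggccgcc
Nr4a1: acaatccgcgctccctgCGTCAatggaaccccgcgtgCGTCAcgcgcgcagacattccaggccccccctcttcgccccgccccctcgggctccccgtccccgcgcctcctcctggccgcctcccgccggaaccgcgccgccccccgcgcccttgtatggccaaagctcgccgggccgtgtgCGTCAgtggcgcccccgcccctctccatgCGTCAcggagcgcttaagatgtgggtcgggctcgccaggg
Dusp2: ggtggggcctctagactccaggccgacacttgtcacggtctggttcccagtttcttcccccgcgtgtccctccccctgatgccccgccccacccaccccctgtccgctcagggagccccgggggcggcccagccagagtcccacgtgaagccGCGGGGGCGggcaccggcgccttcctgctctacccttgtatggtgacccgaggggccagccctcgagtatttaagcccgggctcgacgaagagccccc
No GENCODE exon overlaps these windows. Both strands were searched, and no match of 1 motif overlaps another in the windows shown. The 12 early genes in the table had 18 windows, since some have several starts. Of these windows, 5 held a CArG box, 9 TGACG and 2 GCGNGGGCG, and of all 32544 windows 1.48%, 17.8% and 4.74% did. Counted by gene, 2 of the 12 held a CArG box (Egr2 and Dusp5), 7 TGACG and 2 GCGNGGGCG. Egr2 has 5 of the windows, so the window count for the CArG box counts that gene more than once. Egr1, Egr3, Ier2 and Myc have no window in the table and were not searched. A match is a description of the letters and not a site of binding.

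Genes of positive selection and survival were higher as well, 9 of 14 (Cd5, Cd2, Cd28, Cd53, Tox, Id3, Gata3, Bcl2 and Il7r) with a median log2 ratio of 1.79 over the list. Bcl2, an antiapoptotic protein, was at 876 CPM (839 to 914) against 48.6, 18-fold higher (15.2 to 21.6). Il7r, a receptor subunit for interleukin 7, was at 284 CPM against 9.86, 28.8-fold higher (19.8 to 43.7). Themis and Slamf6 were lower, Themis at 224 CPM against 1004 (4.48-fold, 4.08 to 4.92). Themis acts in receptor signaling at selection, and Slamf6 is a coreceptor of the SLAM family. None of the 7 genes of the T-cell receptor and CD3 complex was 2-fold apart, and Trac, the α chain constant region, was at 1031 CPM against 786.

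DP-stage genes were lower in 9 of 11 cases once Cd4, Cd8a and Cd8b1, which chose the DP cells, were left out (among them Rag1, Rag2, Dntt, Arpp21, Tcf12, Cd1d1, Bcl2l1 and Aqp11), with a median log2 ratio of -4.26. Rag1, a subunit of the recombinase, was at 57.9 CPM (48.6 to 68.4) against 2066, 35.7-fold lower (30.1 to 42.6). Dntt, which adds bases at the joins, was 19.2-fold lower (16.6 to 22.3).

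Of 6 lineage choice genes, 5 were higher (Zbtb7b, Gata3, Cd40lg, Runx3 and Nkg7). Zbtb7b, the CD4-lineage factor ThPOK, was at 87.2 CPM against 2.11 (41.3-fold, 18.7 to 114), and Runx3, a CD8-lineage factor, at 50.3 CPM (5.96-fold, 3.82 to 9.66). Against all WT cells lacking both genes Runx3 was 1.01-fold apart (0.806 to 1.27) and Nkg7 1.11-fold lower (0.893 to 1.38). Of 10 maturation genes, 6 were higher (Klf2, Ms4a6b, Gimap3, Gimap4, Cd52 and H2-K1), for example Gimap4, a GTPase of lymphocytes, at 392 against 44.4 CPM. Against all WT cells lacking both genes, 1 of the 10 was at least 2-fold higher and 8 lay between, so the call ended for most of these genes, as it did for Runx3 and Nkg7. Of 13 genes known from strong receptor signals, Pdcd1, Ikzf2, Tnfrsf18 and Tnfrsf4 were higher and Cd200 was lower. Ccr7, which directs cells to the medulla, was 8.57-fold higher (6.38 to 11.7), Cxcr4 10.3-fold lower (7.27 to 15.1) and Ccr9 1.81-fold lower (1.72 to 1.90). All 13 genes of γδ and innate T cells and all 8 genes of the DN3 stage and Notch were under 50 CPM in both populations, so none could be counted. The summed level of the γδ and innate genes was 172 CPM in gated cells and 75.0 CPM in DP cells.

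Among the 12 highest ratios were Chl1, Pdcd1, Cd40lg, Gpr183, Egr2, Gpr83 and Izumo1r, the last a folate receptor family member at 244 against 5.28 CPM. The lowest ratios included Rag1, Arpp21 and Slc7a11, and 3 hemoglobin genes whose DP level came from few cells (Hba-a1, 988 UMIs in 4 cells). With both populations thinned to 2000 UMIs, the counts of list members past 2-fold stayed at 11 higher and 1 lower for early genes, 9 and 2 for positive selection and 9 lower for the DP stage, and lineage choice went from 5 to 3. All 5 lineage genes kept their direction, and Runx3 (5.06-fold, 1.90 to 14.3) and Nkg7 (16.9-fold, 4.77 to 90.9) were no longer counted because their thinned levels of 30.2 and 37.7 CPM were under 50 CPM. The summed level of 6 heat shock genes was 5628 CPM in gated cells and 4430 CPM in DP cells, with all 6 between the 2-fold limits. After thinning, 2 were at least 2-fold higher, Hspa1a (2.36-fold, 1.85 to 3.00) and Hsph1 (2.32-fold, 1.76 to 3.05). Their part in the other differences was not tested.

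Levels were also read in WT cells with only 1 of the gate genes, to ask which genes went with which. The classes differed in depth, with median UMIs of 2344.5 with neither gene, 3261 with Cd69 alone, 5342 with Itm2a alone and 5564 with both. They were not compared at equal depth, and the part of depth in the orders below was not tested. Egr1 was at 31.8 CPM (27.0 to 37.3) in WT cells with neither gene, 45.1 (37.6 to 53.6) with Itm2a alone, 233 (207 to 262) with Cd69 alone and 363 with both. Nr4a1 was at 12.3, 42.2, 196 and 258 CPM in the same order. Both early genes were thus higher with Cd69 alone than with Itm2a alone, their intervals apart. The opposite held for Il7r, at 70.3 CPM with neither, 240 (222 to 258) with Itm2a alone, 116 (97.7 to 136) with Cd69 alone and 284 with both. Ccr7 followed Itm2a, at 61.6, 148, 65.2 and 154 CPM, and so did Zbtb7b, at 11.9, 58.2, 19.3 and 87.2 CPM. Rag1 was at 1420 CPM with neither, 576 (535 to 620) with Cd69 alone, 165 (150 to 181) with Itm2a alone and 57.9 with both. Dntt, at 1137, 602, 270 and 78.9 CPM, kept that order.

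**Figure D2:**
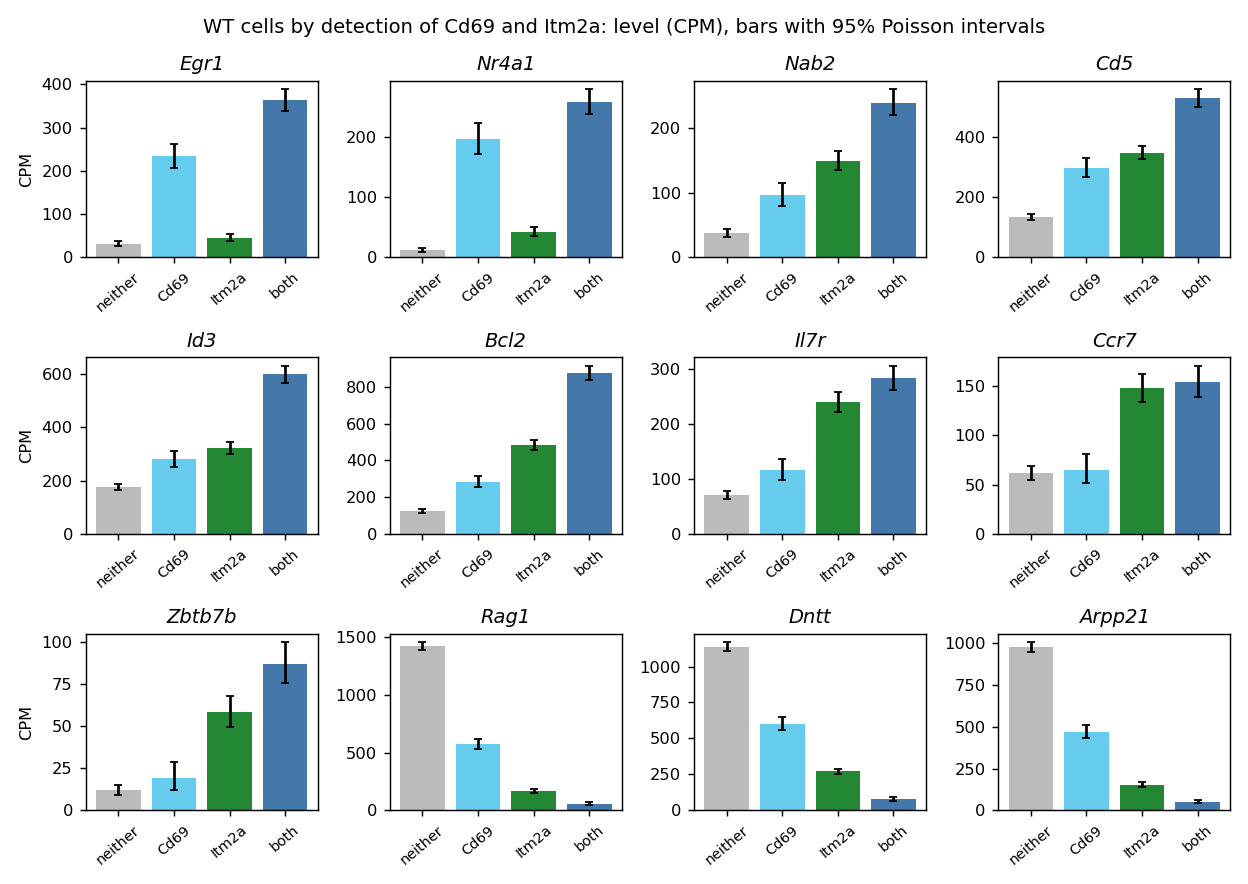
Levels in CPM (y axes, linear from 0, 1 panel a gene) in WT low-cycling, S1pr1-negative cells by detection of Cd69 and Itm2a (x axes: neither, Cd69 alone, Itm2a alone, both). Bars are summed UMIs per class with exact Poisson 95% intervals. Egr1 and Nr4a1 are high in both classes with Cd69, Il7r, Ccr7 and Zbtb7b in both classes with Itm2a, and Rag1 and Dntt descend from neither to both.

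The post-selection WT cells covered several coreceptor states. Of 395, 163 held Cd4 alone (41.3%), 90 both Cd4 and Cd8 (22.8%), 78 Cd8 alone (19.7%) and 64 neither (16.2%), with Cd8 meaning a UMI of Cd8a or Cd8b1. Rag1 was at 186 CPM (152 to 225) with both coreceptors, 16.3 with Cd4 alone, 29.0 with Cd8 alone and 3.17 with neither. Zbtb7b was at 124 CPM (103 to 147) with Cd4 alone and 15.6 (6.27 to 32.1) with Cd8 alone, and Runx3 at 18.2 (11 to 28.4) and 138 (106 to 177), so the CD4-lineage factor and the CD8-lineage factor split by coreceptor. Nkg7, a granule protein of CD8 and innate T cells, was at 11.5 CPM with Cd4 alone, 140 with Cd8 alone and 152 with neither. The class with neither also held Trdc, the δ chain constant region, at 190 CPM (145 to 245) against 9.58 with Cd4 alone. Egr1 lay between 281 CPM (234 to 334) with Cd8 alone and 421 CPM (353 to 499) with neither.

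In PL the gate held few cells with Cd4. Any Cd4 UMI was found in 64.1% of gated WT cells (59.1 to 68.8%), 4.83% of gated PL cells (2.34 to 8.70%), 27.2% in T-ALL#1 (18.4 to 37.4%) and 22.2% in T-ALL#2 (15.7 to 29.9%). In cells lacking both gate genes the shares were 73.4%, 3.29%, 62.0% and 31.1%, so PL was low in Cd4 on both sides of the gate. Of the 207 gated PL cells, 92 held Cd8 alone and 105 neither coreceptor.

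**Figure D3:**
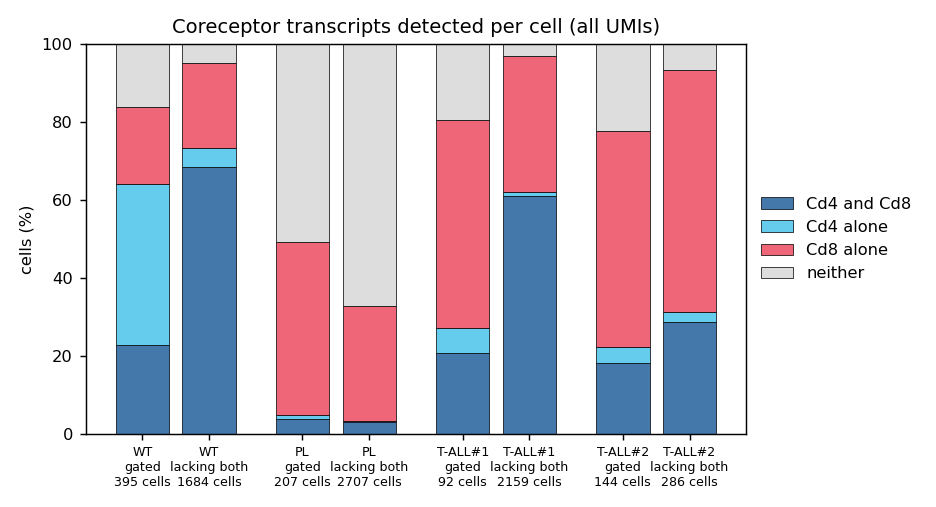
Gated cells and cells lacking both gate genes in each library (x axis) by coreceptor class, in percent of those cells (y axis): both Cd4 and Cd8, Cd4 alone, Cd8 alone or neither. Cd4 alone makes up 41.3% of gated cells in WT and 0.966% in PL, where Cd8 alone and neither make up 44.4% and 50.7%.

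Gated PL cells were then compared with gated WT cells, to ask how the transgenic cells that meet the same gate differ. Of 3586 genes with at least 50 CPM in either, 6.61% were at least 2-fold higher in PL and 5.08% at least 2-fold lower, with a median log2 ratio of -0.04. Median UMIs were 7553 in gated PL and 5564 in gated WT cells.

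Early genes were lower in PL for 10 of 16 and higher for none (Egr1, Egr2, Nr4a1, Nr4a3, Nab2, Ier2, Dusp5, Dusp6, Nfkbid and Myc), with a median log2 ratio of -2.15. Egr1 was at 68.1 CPM (56.5 to 81.3) in PL, 5.34-fold lower (4.41 to 6.51), and Nr4a1 at 66.9 CPM (55.4 to 80.1), 3.85-fold lower (3.16 to 4.73). With cells thinned to 2000 UMIs before gating, which left 36 PL and 199 WT cells, the log2 ratio of Nr4a1 was 0.020, that of Cd5 -0.80, of Id3 -2.10 and of Bcl2 -3.82. Of the 10 early genes, 6 stayed at least 2-fold lower, Nr4a1, Nr4a3, Dusp5 and Ier2 did not, and several of these ratios rest on few PL UMIs (Egr1 on 2, Nr4a1 on 20 and Nr4a3 on 0). Thinning before gating changes the cells as well as their depth, and the 2 were not told apart. Within PL itself, however, gated cells were 5.52-fold higher in Egr1 (4.33 to 7.03) and 6.50-fold higher in Nr4a1 (5.04 to 8.37) than PL cells lacking both genes. Of 3449 genes in that comparison, 0.638% were at least 2-fold higher and 0.348% at least 2-fold lower, and the genes higher included Cd5 (5.40-fold), Id3 (10.7-fold), Cd2, Cd6, Bcl2, Trac, Nkg7, Pdcd1 and Gimap4. In the 40 gated PL cells with at least 2 UMIs of each gate gene, Nr4a1 was at 146 CPM (112 to 187) against 42.1 (31.9 to 54.6) in the other 167, and Cd5 at 165 (128 to 208) against 88.0 (72.9 to 105). Id3 and Bcl2 showed no such step, at 82.3 and 205 CPM in the 40 cells and 86.5 and 211 CPM in the others. The PL cells well inside the gate were thus higher in Nr4a1 and Cd5 than the other gated PL cells. Both levels were below those of all gated WT cells, which were not held to 2 UMIs here.

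Genes of positive selection were lower in PL for 8 of 14 (Cd5, Cd6, Cd2, Cd28, Id3, Gata3, Bcl2 and Il7r) and higher for Slamf6. Bcl2 was at 210 CPM (189 to 232), 4.17-fold lower than in WT (3.74 to 4.67), and Il7r at 38.2 CPM, 7.42-fold lower (5.78 to 9.67). Within PL, Il7r was 1.02-fold lower in gated cells than in cells lacking both genes, an interval that includes equality (0.791 to 1.33). After thinning, 5 of the 8 stayed at least 2-fold lower, and Cd5, Cd6 and Cd28 did not (log2 ratios of -0.80, -0.39 and -0.28). Trac was 2.32-fold lower (2.14 to 2.52).

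The CD4-lineage genes were nearly missing. Zbtb7b had 2 UMIs in gated PL cells, 77.6-fold below WT (21.2 to 645), Cd40lg, the helper ligand, had 3 UMIs, 46.0-fold below (15.5 to 225), and Cd4 was at 6.75 CPM, 39.2-fold below (22.3 to 76.2). Tnfrsf4 and Ccr7 were also lower, Ccr7 by 15.2-fold (9.49 to 25.9). On the CD8 side, Nkg7 was at 151 CPM in PL, 2.87-fold higher (2.32 to 3.58), and Runx3 at 76.5 CPM against 50.3 (1.52-fold, 1.18 to 1.96). Of the gated cells, 41.3% in WT and 0.966% in PL held Cd4 alone, and the part of the coreceptor classes in these differences was not tested.

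DP-stage genes split. Dntt was at 548 CPM in PL, 6.95-fold higher than in WT (5.94 to 8.17), Arpp21 5.59-fold higher (4.58 to 6.87) and Tcf12, an E protein, 2.61-fold higher, whereas Rag1 was at 63.0 CPM with an interval that includes equality (1.09-fold, 0.840 to 1.41), and Satb1, a chromatin organizer, was 3.41-fold lower (3.23 to 3.61).

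Genes of γδ and innate T cells were higher in PL for 6 of 13 (Trdc, Tcrg-C1, Tcrg-C2, Tcrg-C4, Sox13 and Rora) and lower for none. Trdc was at 1497 CPM (1440 to 1555) in PL and 44.9 CPM (36.8 to 54.2) in WT, 33.3-fold higher (27.5 to 40.8), and was found in 161 of 207 gated PL cells and 23 of 395 gated WT cells. Tal1 and Trdc were detected together in 137 of the 207 cells. Trdc was at 999 CPM in gated PL cells with Cd8 alone and 2009 CPM with neither coreceptor. It did not set the gate apart within PL, where gated cells were 1.14-fold higher (1.09 to 1.19) than cells lacking both genes. Tcrg-C1 and Tcrg-C2 are near-identical copies whose reads may be split between them, so their single values are uncertain.

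Of the genes known from the Tal1 complex, Tal1 was at 368 CPM (340 to 397) in gated PL cells and had 0 UMIs in gated WT cells. With 0 set to a floor of 3 UMIs, Tal1 was 292-fold higher in PL, and Tcf3 and Tcf12 were also past 2-fold. Id2, an inhibitor of E proteins, was 14.5-fold lower (10.5 to 20.6) and Id3 7.01-fold lower. Lmo2 was at 2.81 CPM in PL and 2.52 CPM in WT. Cpa3, a mast cell carboxypeptidase, had the highest ratio, at 1481 CPM against 1.68 (883-fold, 344 to 3242), and was at 2393 CPM in gated PL cells with neither coreceptor and 589 CPM with Cd8 alone. Myh10, Hhex, Gpr34, Angpt1 and Ly6c1 followed among the 12 highest. Of 7 genes listed from earlier results on preleukemic cells, which include Cpa3, 5 were higher. That list was chosen on these samples and is not independent evidence of its direction. In cells lacking both gate genes, 6 of the 7 were at least 2-fold higher in PL than in WT. The median log2 ratio of the 7 there was 5.34, and that of all genes compared was -0.075. Within PL, 0 of the 7 were at least 2-fold higher in gated cells than in cells lacking both genes, and 2 were lower. The higher level in PL was thus not limited to the gated cells.

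**Figure D4:**
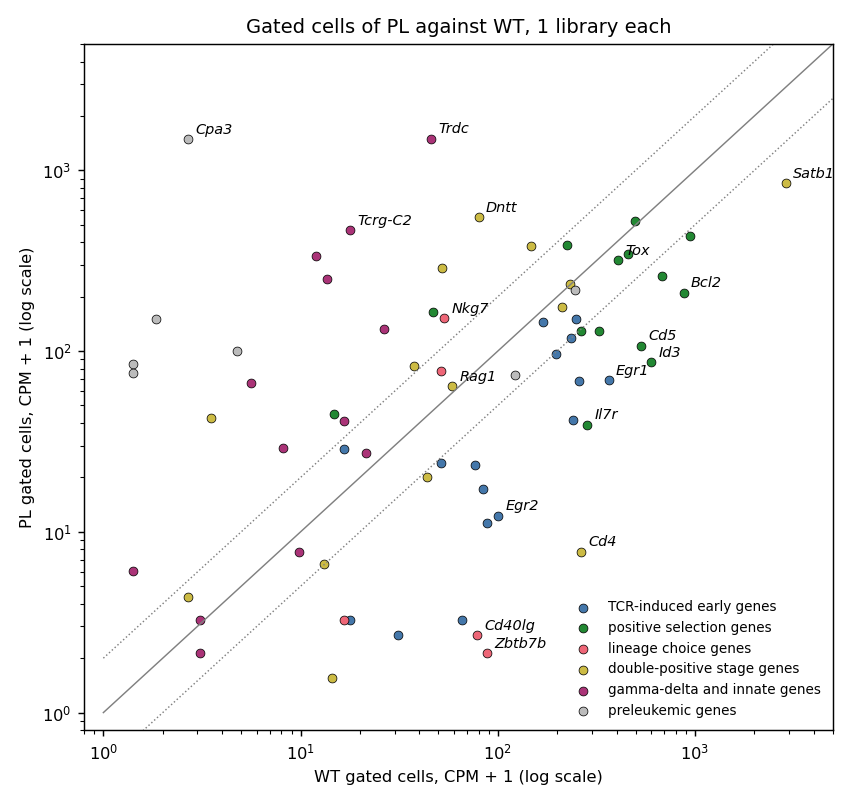
Levels as CPM + 1 in gated WT cells (x axis) and gated PL cells (y axis), both log scales, 1 library each. Points are genes of the lists in the key, colored by list, with a solid line at equality and dotted lines at 2-fold. Zbtb7b, Cd40lg and Cd4 lie far below the lines and Cpa3 and Trdc far above.

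Of the identity markers, fewer were past 2-fold in the gated cells of the leukemias than in those of WT or PL, but other genes were. Of 3255 genes in T-ALL#1, 1.47% were at least 2-fold higher and 4.98% at least 2-fold lower in gated cells than in cells lacking both genes. Those higher included Tox (2.49-fold, 2.08 to 2.95), Id3 (2.46-fold, 1.98 to 3.02), Gata3, Bcl2 (3.95-fold, 3.08 to 5.03), Jun (3.15-fold, 2.72 to 3.63), Gimap4 and Ccr9. Lower in gated T-ALL#1 cells were Rag1 (6.73-fold, 5.33 to 8.61), Ptcra, Notch3 and the Notch targets Hes1 (2.68-fold, 2.25 to 3.20) and Dtx1 (3.42-fold, 2.97 to 3.95). In T-ALL#2, 0.23% of 2614 genes were higher and 1.26% lower, Egr1 was 1.01-fold apart (0.718 to 1.42), and Rag1 was 4.39-fold lower (3.05 to 6.48). Lower Rag1 was thus found in gated cells of all 4 libraries, in PL by 1.85-fold (1.52 to 2.26).

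Against gated WT cells, 3.03% of 3305 genes were at least 2-fold higher in both leukemias and 11.5% at least 2-fold lower in both. With TMM factors these were 5.72% and 8.07%, and with DESeq2 factors 6.07% and 7.68%, so the excess of lower genes depends on the scaling. TMM or DESeq2 factors would raise the log2 ratios to WT by 0.12 or 0.15 in T-ALL#1 and by 0.46 or 0.49 in T-ALL#2. Of 16 early genes, 8 were lower in both (Egr1, Egr2, Nr4a1, Nr4a3, Nab2, Dusp2, Dusp6 and Nfkbid) and Fos was higher in both. Of the 6 heat shock genes, 4 were lower in T-ALL#1 and 5 in T-ALL#2. With each leukemia taken alone, 415 of 3466 genes compared were at least 2-fold lower in T-ALL#1 and 978 of 3427 in T-ALL#2. The summed levels of the 6 heat shock genes were 2538 and 2463 CPM against 5628 CPM in gated WT cells. Their part in the result was not tested. In PL the sum was 3725 CPM, with none of the 6 past 2-fold. In cells lacking both gate genes, 3 of the 6 were lower in T-ALL#1 than in WT, and 4 in T-ALL#2. The median log2 ratios of the 6 there were -1.09 in T-ALL#1 and -1.29 in T-ALL#2, and those of all genes compared were -0.22 and -0.57. Egr2 had 0 UMIs in either leukemia, at least 39.3-fold below WT in T-ALL#1 and at least 79.6-fold in T-ALL#2. Fos was at 145 CPM in T-ALL#1 and 74.5 in T-ALL#2 against 15.5 in WT. Of 14 positive selection genes, 9 were lower in both, with Bcl2 at 79.2 CPM in T-ALL#1 and 17.1 in T-ALL#2. Of 8 DN3 and Notch genes, Il2ra, Notch1, Hes1 and Dtx1 were higher in both, Hes1 at 112 CPM in each leukemia against 2.52 CPM in WT (44.5-fold, 19.9 to 123 in T-ALL#1). PL did not share this for Hes1, at 2.25 CPM, or for Dtx1, at 10.1 CPM against 7.97, while Notch1 was at 114 CPM in PL against 46.6. In cells lacking both gate genes, 6 of the 8 DN3 and Notch genes were higher in T-ALL#1 than in WT, and 4 in T-ALL#2. The median log2 ratios of the list there were 2.82 and 1.65, and those of all genes compared were -0.22 and -0.57. Higher DN3 and Notch genes in the leukemias were thus not limited to the gated cells. The leukemias differed from each other in Trdc, with 0 UMIs in gated T-ALL#1 cells and 181 CPM (164 to 199) in T-ALL#2.

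**Figure D5:**
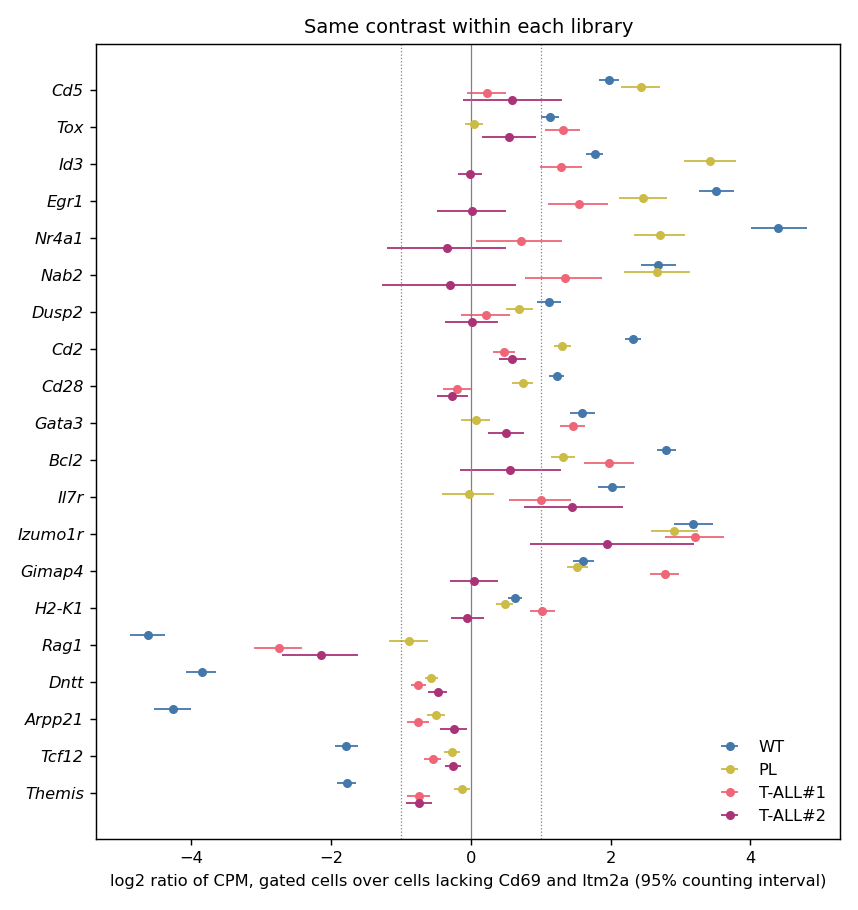
Ratio of gated cells to cells of the same library lacking Cd69 and Itm2a (x axis, log2 ratio of CPM) for selected genes (y axis) in the 4 libraries. Dots are ratios, bars exact 95% counting intervals and dotted lines 2-fold. Egr1 and Nr4a1 are 11.4-fold and 21.0-fold higher in WT, 5.52-fold and 6.50-fold in PL, and near equality in T-ALL#2, while Rag1 is lower in all 4.

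Markers of other cell types were low in the gate. Summed myeloid markers were between 3.36 CPM (WT) and 12.6 CPM (T-ALL#1), the 4 erythroid markers had 0 UMIs in the gated cells of every library, and summed B-cell markers, mostly Ighm, were between 60.4 CPM (WT) and 222 CPM (T-ALL#1).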

How the data were processed

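Viable thymocytes of 4 thymi were profiled on the 10x Genomics platform. The deposited matrices hold raw UMI counts of 31053 genes per barcode, which the authors made with Cell Ranger 3.0.2 (WT, PL and T-ALL#1) or 4 (T-ALL#2), against mm10 per the labels. The sources differ on the 3′ chemistry and tie no version to a library. Cells with over 500 genes and under 10% mitochondrial UMIs were kept. The T-ALL#2 matrix holds every barcode, and at least 3416 UMIs were required there. Doublets were not called.

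Counts were summed per library and population and given as CPM of those sums, with exact Poisson intervals; shares have Clopper-Pearson intervals and ratios exact conditional binomial ones. A gene counted as higher or lower at a ratio of at least 2, with at least 50 CPM in the higher population. For ratios, 0 UMIs was set to 3. No test was run, since WT and PL have 1 library each. Scaling factors from edgeR 4.0.16 (TMM) and DESeq2 1.42.0 were alternatives, as were thinning, other limits and a comparator chosen after seeing the data. Positions are from GENCODE M21 (GRCm38), where 99.9% of gene identifiers were found. Genes named are members of 19 lists and the 12 highest and lowest ratios of 2 comparisons (WT gated against DP and PL gated against WT gated). Ccnd2, Gm266, Gzma and Ccl5 were chosen after their values were seen. The members and lists were chosen with earlier results of these data known. Python 3.11.15 with NumPy 2.4.6, SciPy 1.17.1 and pandas 2.3.3 and R 4.3.3 were used.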

Additional observations from a re-analysis of the deposited data

Results flagged for a closer look

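Tcrg-C2 was the 1 gene flagged, because gated cells differed from cells lacking both genes in opposite directions between libraries. Its log2 ratio was 2.99 in T-ALL#1, 1.16 in T-ALL#2 and -2.16 in WT. The difference between libraries was not tested. In gated cells Tcrg-C2 was at 16.8 CPM in WT, 464 CPM in PL, 267 CPM in T-ALL#1 and 144 CPM in T-ALL#2. Tcrg-C2 is nearly identical in sequence to Tcrg-C1, so how reads were divided between the copies is uncertain.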

How the results depend on the processing

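The gate rests on single UMIs, so depth limits it, and 36 PL cells, 11 T-ALL#1 cells and 7 T-ALL#2 cells remained after thinning. No paired analysis was possible because no result comes from a test and the labels pair no animals.

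Against WT DP cells, the 364 higher and 601 lower genes became 864 and 1242 at 10 CPM, 127 and 193 at 200 CPM, and 689 and 1235 at a ratio of 1.5. Against all WT cells lacking both genes, a comparator chosen after seeing the data, they became 170 and 378. The log2 ratio of Nkg7 changed sign there (-0.15), with an interval that includes equality. Against gated WT cells, the 237 higher and 182 lower genes in PL became 743 and 535 after thinning, 785 and 571 at 10 CPM, 56 and 49 at 200 CPM, and 454 and 498 at a ratio of 1.5. After thinning, the log2 ratios of Nr4a1 (0.020), Cd1d1 (-0.78) and Bcl2l11 (0.14) in PL against WT changed sign. Their ratios had intervals that include equality (0.596 to 1.64, 0.0657 to 2.41 and 0.447 to 2.39), so the opposite direction is not shown. For both leukemias, the 100 higher and 380 lower genes became 536 and 121 after thinning, 375 and 988 at 10 CPM, 33 and 99 at 200 CPM, and 265 and 844 at a ratio of 1.5. The higher genes became 188 under TMM and 200 under DESeq2 factors, and the lower genes 253 under DESeq2 factors, which raise T-ALL#2 levels against WT by 0.495 on the log2 scale (TMM 0.462). The thinned counts say nothing of direction, because 0 UMIs set to 3 stands for 136 CPM in T-ALL#1, 214 CPM in T-ALL#2 and 41.7 CPM in PL. With 1 leukemia left out, they ranged from 192 to 232 and from 415 to 978. The cause of these changes was not tested, beyond the looser or stricter limits themselves.

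The WT share in the gate was 4.43% at 2 UMIs of each gene, 11.2% without the S1pr1 condition, 7.44% with no cycling UMI and 6.16% after thinning. At 2 UMIs, with no cycling UMI and after thinning, in that order, the share was 0.717%, 2.56% and 0.689% in PL, 0.450%, 0.658% and 0.194% in T-ALL#1, and 1.77%, 1.57% and 0.354% in T-ALL#2. Any Cd4 was found in 69.5% of gated WT cells and 10.0% of gated PL cells at 2 UMIs of each gene, and after thinning in 41.2% in WT, 0% in PL and 0% in T-ALL#1. Of 1702 recomputed WT ratios of named genes, 1275 stayed within the interval and 1 turned. Of 1350 recomputed PL ratios, 1094 stayed within it and 3 turned.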

Other observations

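Some genes outside the lists stood apart in gated cells and were chosen after their values were seen. Gzma, a granule protease, was at 11.7 CPM in gated WT cells, 344 CPM in PL, 1645 CPM in T-ALL#1 and 2076 CPM in T-ALL#2, and was also higher in gated cells than in cells lacking both genes in T-ALL#1 (3.39-fold, 3.22 to 3.57) and T-ALL#2 (2.78-fold, 2.64 to 2.94). Ccl5, a chemokine, came from 1 cell in WT and from 26 of 207 gated cells in PL, at 171 CPM. In gated PL cells Ccl5 was at 323 CPM with Cd8 alone and 45.0 CPM with neither coreceptor, while Trdc and Cpa3 had the opposite order. Gm266 had 0 UMIs in gated WT and PL cells and was at 179 CPM in T-ALL#1 and 221 CPM in T-ALL#2. Ccnd2, a D-type cyclin, was at 804 CPM in gated WT cells, 133 CPM in PL, 59.0 CPM in T-ALL#1 and 33.7 CPM in T-ALL#2, and at 35.9 CPM in WT DP cells.

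Of the β chain constant regions, Trbc1 was at 2416 CPM in gated WT cells, 3900 CPM in PL, 1573 CPM in T-ALL#1 and 0.416 CPM in T-ALL#2. Trbc2 was at 4441, 3218, 3268 and 3395 CPM in the same order, so gated T-ALL#2 cells held almost no Trbc1, and their Trbc2 level was within the range of the other libraries.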
